A study of Mus musculus with 4 samples.

Results

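The genes described here encode the machinery that condenses, attaches and separates chromosomes in mitosis: spindle checkpoint proteins and mitotic kinases, the chromosomal passenger complex, centromere and kinetochore proteins, kinesin motors, cytokinesis proteins, the condensin I complex with other chromosome proteins, and separase with its inhibitor securin. They were chosen by name and function, as 48 gene symbols, with earlier results of these data known. All 48 were found among the 50600 genes of each deposited table, of which 21764 are protein-coding. The samples were 4 RNA-seq libraries of T helper 17 (Th17) primary cells, CD4 T cells that make IL-17 cytokines, from mice of the C57BL/6NJ strain. The labels number them as biological replicates 1 to 4 of 1 group, link a protocol for differentiating CD4 T cells, and list no genotype, agent or dose; age is given as unknown. The file headers name alignments of 24 hour samples, a time absent from the labels. There was no other cell type, condition or untreated control, so the data give levels within this group and differences between its libraries, and no effect of a treatment.

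Total counts ranged from 19332509 to 48558772 and 16486 to 18085 genes had a count. All 6 Th17 markers lay above 1 TPM, the usual transcript level scaled by gene length and library total, from Il23r, a receptor subunit gene, at 14.4 ± 2.70 TPM (SD, n = 4) to the cytokine gene Il17f at 492 ± 71.4 TPM, and T cell markers ran from Cd3g at 49.8 ± 4.64 TPM to Cd5 at 1985 ± 36.1 TPM. None of the 17 markers of B cells, macrophages and dendritic cells, neutrophils and erythroid cells, or stromal and epithelial cells lay above 1 TPM. The highest of each were Cd79b at 0.337 ± 0.198, Adgre1 at 0.0837 ± 0.0569, Hbb-bs at 0.0562 ± 0.112 and Krt18 at 0.0995 ± 0.130 TPM. These 4 lists each summed to at most 0.991 TPM in any library, with the lowest B cell marker, Ms4a1, at 0.00777 ± 0.0155 TPM and Lyz2, Csf1r, S100a8, S100a9, Hba-a1 and Krt8 at 0 in every library. Of 4 markers of CD8 T and NK cells, Cd8b1 was at 14.4 ± 1.40 TPM, Cd8a at 0.101 ± 0.0412 TPM, and Klrb1c and Ncr1 at 0 in every library. The labels give 1 donor entry and no sex, yet the Y-linked gene Ddx3y was at 77.8 and 58.9 TPM in replicates 1 and 2 and at 0.240 and 0.0925 TPM in replicates 3 and 4, so the libraries fall into 2 pairs that stand apart. Xist, an X-linked gene, went the opposite way, at 0.916 and 1.01 TPM in replicates 1 and 2 and at 154 and 152 TPM in replicates 3 and 4. Nothing says how the replicates were separated, so p-values speak only for these libraries, whose spread within each pair may be technical.

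As a cell enters mitosis, condensin and topoisomerase II compact the chromosomes, and a kinetochore assembles on each centromere to bind spindle microtubules. Kinetochores without microtubules produce the checkpoint signal that holds back the anaphase-promoting complex; once it is released, securin is destroyed, separase opens cohesin, and kinesins and cytokinesis proteins divide the cell. Activated T cells divide rapidly, and most of these genes are transcribed mainly in the G2 and M phases of the cycle, when repression by the DREAM complex has given way to activation by B-MYB, FOXM1 and NF-Y.

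RefSeq (GRCm38.p6) promoters, from 250 bases before to 50 after the annotated start, were matched by symbol to 42 of the 48 genes, with 47 promoters between them. No promoter was matched for Tpx2, Aurkb, Spc24, Kif20a, Smc4 and Incenp. The promoters were searched on both strands for TTTGAA (reverse complement TTCAAA), the core of the cell cycle genes homology region (CHR) that the MuvB core of the DREAM, B-MYB and FOXM1 complexes binds, and for CCAAT (reverse complement ATTGG), the NF-Y box. The motifs overlapped each other in 1 of the 47 promoters. In the following 4 promoters, each printed in the direction of transcription over the 120 bases that end just before the start, capitals mark every TTTGAA and CCAAT match. They are shown because both motifs lie in this stretch and none of it falls within the gene as the deposited tables bound it.
Top2a, chr11:99024190-99024309, minus strand: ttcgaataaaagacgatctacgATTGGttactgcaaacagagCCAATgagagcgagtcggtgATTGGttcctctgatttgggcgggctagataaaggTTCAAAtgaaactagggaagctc
Kif11, chr19:37376262-37376381, plus strand: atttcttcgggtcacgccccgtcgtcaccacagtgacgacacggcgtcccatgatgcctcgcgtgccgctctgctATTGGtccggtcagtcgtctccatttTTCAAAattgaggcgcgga
Espl1, chr15:102296173-102296292, plus strand: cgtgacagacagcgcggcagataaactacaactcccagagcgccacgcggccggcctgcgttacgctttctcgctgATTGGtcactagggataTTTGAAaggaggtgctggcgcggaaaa
Ect2, chr3:27153879-27153998, minus strand: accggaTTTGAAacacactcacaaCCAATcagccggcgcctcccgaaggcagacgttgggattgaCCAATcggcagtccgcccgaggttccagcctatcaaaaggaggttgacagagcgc
Within the printed bases, the NF-Y box of Top2a nearest its CHR-type match is 35 bases away (first base to first base). That CHR-type match is at position -23 from the start. In Kif11 the nearest matches are 26 bases apart, in Espl1 17 and in Ect2 18. The CHR-type match printed for Ect2 lies farther out, at position -114. Outside the printed bases, the same promoter of Top2a has another CHR-type match at position -179. That of Ect2 has another at position 40, after the start.

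TTTGAA was present in 30 of 42 genes of the set (71.4%), against 20.2% of all 27025 genes with a promoter. By promoter it was in 33 of 47 (70.2%), against 17.9% of all 32851 RefSeq promoters. It was in 13.7% of the 6205 protein-coding genes above 10 TPM with a promoter. CCAAT was present in 29 of 42 genes (69.0%) and 72.3% of promoters, against 41.1% of all genes with a promoter and 37.4% of all promoters. Of the 6205 protein-coding genes above 10 TPM with a promoter, 43.2% held CCAAT. Both motifs together were in 24 genes (57.1%) and 57.4% of promoters, against 7.97% of all genes with a promoter and 6.95% of all promoters. Within 50 bases of the start, 61.7% of the promoters of the set held TTTGAA, against 4.94% of all promoters. By role, TTTGAA was in 7 of 8 kinesin genes with a promoter and 5 of 6 condensin and chromosome genes. It was in 6 of 8 checkpoint and kinase genes and 3 of 7 centromere genes. CCAAT was in all 7 centromere genes, 7 of 8 checkpoint and kinase genes and 5 of 6 condensin and chromosome genes. It was in 4 of 8 kinesin genes, 3 of 5 midzone and cytokinesis genes and 1 of 4 outer kinetochore genes. The passenger complex held CCAAT in 1 of 2 genes, as did separase with securin. Of 16 genes of G1/S transition and DNA replication with a promoter, 1 held TTTGAA and 10 held CCAAT. Lists nearer in function to the set held TTTGAA more often than that: 10 of 24 other spindle and cytokinesis genes (41.7%), 3 of 6 other checkpoint genes, 6 of 19 other kinetochore genes (31.6%), 4 of 12 condensin II and cohesin genes, 4 of 11 genes of DREAM, B-MYB, FOXM1 and NF-Y, and 4 of 17 genes of the anaphase-promoting complex. In these lists CCAAT was in 15 of 24 other spindle and cytokinesis genes (62.5%) and 12 of 19 other kinetochore genes (63.2%), near the 69.0% of the set. It was in 6 of 11 genes of DREAM, B-MYB, FOXM1 and NF-Y and 6 of 12 condensin II and cohesin genes. The anaphase-promoting complex had it in 7 of 17 genes and the other checkpoint genes in 2 of 6. The differences between lists were not tested. A match of these letters describes the sequence and does not show binding.

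**Figure D1:**
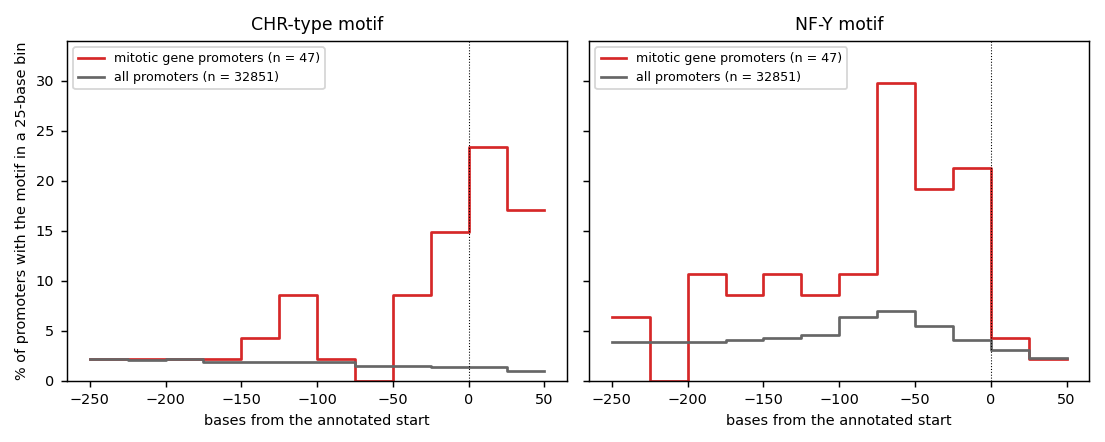
Share of promoters with a CHR-type motif (left) or an NF-Y motif (right) in each 25-base bin, against distance from the annotated start in bases, for the 47 promoters of the mitotic genes (red) and all 32851 RefSeq promoters (grey). The CHR-type motif of the mitotic genes reaches 23.4% in the bin just after the start, where all promoters have 1.31%, and the NF-Y motif reaches 29.8% between 75 and 50 bases before it, where all promoters have 6.99%.

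All 48 genes were expressed above 1 TPM, a level that 45.9% of protein-coding genes passed (edgeR's quasi-likelihood test, Benjamini-Hochberg adjusted p under 0.05), and none lay below it (51.7%). Against 10 TPM, 44 lay above (35.3% of protein-coding genes did) and 4 below (63.5%). TPM is scaled by gene length, and the order of genes below is that with the merged exon length of the deposited tables; a later paragraph gives what another length changes. The 48 mean levels spanned 34.8-fold, with 4 genes at 100 TPM or more, 40 between 10 and 100 TPM and 4 under 10 TPM. Their median of 38.6 TPM compares with 32.5 TPM for the 9987 protein-coding genes above 1 TPM, and 6 of the 48 exceeded the upper quartile of those genes, 81.4 TPM. The lowest count behind any value was 239 and the highest 28918. In bulk RNA, a smaller share of cells in mitosis or G2 and less RNA per cell cannot be told apart.

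**Figure D2:**
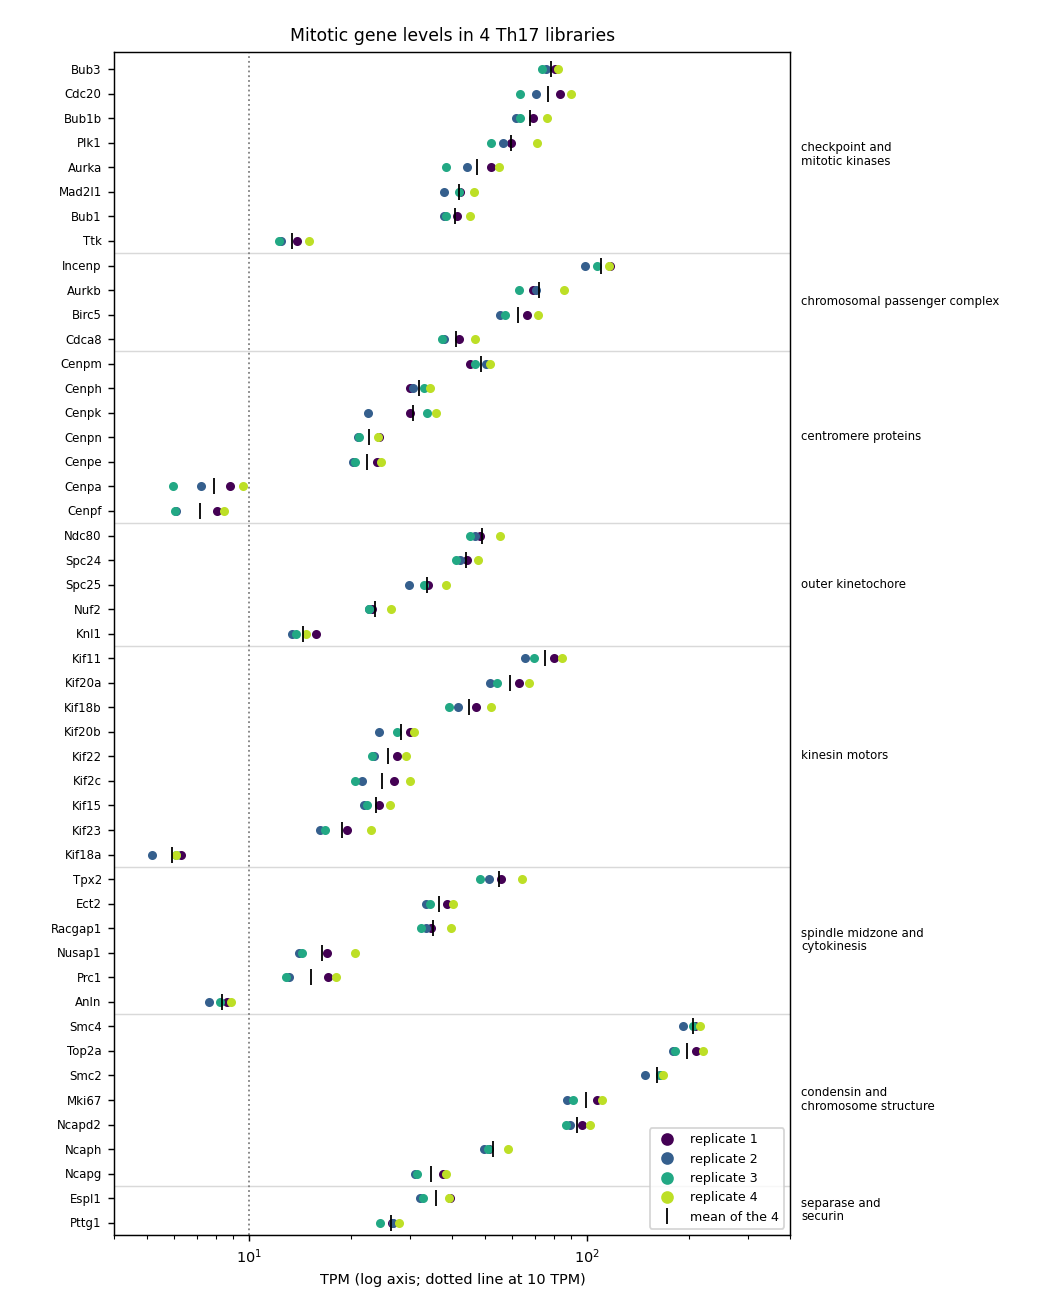
Level of each of the 48 mitotic genes in TPM (log axis) in the 4 Th17 libraries (coloured points) with the mean (black bar), ordered by role and then by level. Smc4, Top2a, Smc2 and Incenp lie above 100 TPM, and Cenpa, Cenpf, Kif18a and Anln lie left of the dotted line at 10 TPM.

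Genes that shape the chromosome itself were the most abundant of the roles, with a summed level of 845 ± 62.05 TPM over 7 genes. Smc4, an ATPase of the condensin core (mm10 chromosome 3, 69004738 to 69034623, ENSMUSG00000034349), had 209, 192, 206 and 216 TPM in replicates 1 to 4, a mean of 206 ± 10.2 TPM. Its 4 libraries were close together, with a coefficient of variation of 4.96%, the smallest of the 48 genes. Top2a, the topoisomerase that untangles sister DNA (chromosome 11, 98992943 to 99024189, ENSMUSG00000020914), had 211, 180.0, 182 and 220.3 TPM, with replicates 1 and 4 above replicates 2 and 3. Smc2, the ATPase partner of Smc4, had 165, 149, 164 and 168 TPM, with replicate 2 lowest. Mki67, the chromosome coat protein used as a marker of proliferation, followed at 99.1 ± 11.5 TPM. The condensin I subunits were lower than the core and unequal: Ncapd2 at 93.5 ± 7.07 TPM, the kleisin Ncaph at 52.6 ± 4.02 TPM and Ncapg at 34.6 ± 3.87 TPM. Of the words of 50 bases in Ncapg transcripts, 11.8% also occur in transcripts of Lcorl, the most shared after Kif20a.

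The spindle checkpoint and mitotic kinase genes lay within 13.4 to 78.1 TPM. Bub3, which carries Bub1 and Bub1b to kinetochores, was the highest of these 8, with 80.7, 75.6, 73.8 and 82.2 TPM in replicates 1 to 4. Replicates 1 and 4 were above the other 2, by a small margin (coefficient of variation 5.16%). Cdc20, the activator of the anaphase-promoting complex that the checkpoint captures, was at 76.8 ± 11.9 TPM with 10.6% of its words shared, mainly with the annotated gene Gm7856. Bub1b, the checkpoint protein BubR1, was at 67.7 ± 6.55 TPM, and Plk1, the Polo kinase, at 59.8 ± 8.11 TPM. Plk1 had 10.4% of its words shared, mainly with the annotated gene Plk-ps1. Aurka, the spindle pole kinase, was at 47.4 ± 7.50 TPM, Mad2l1, which binds Cdc20 in the checkpoint complex, at 42.0 ± 3.52 TPM, and the kinase Bub1 at 40.6 ± 3.37 TPM. Ttk, the kinase that starts the checkpoint signal, was the lowest at 13.4 ± 1.31 TPM.

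The 4 genes of the chromosomal passenger complex, which corrects faulty attachments and later moves to the spindle midzone, ranged from 40.9 to 109.7 TPM. Incenp, the scaffold, had 117, 98.7, 107 and 116 TPM in replicates 1 to 4. Replicates 1 and 4 were nearly level and replicate 2 was lowest. Aurkb, the kinase of the complex, was at 72.2 ± 9.60 TPM, Birc5, survivin, at 62.7 ± 7.70 TPM and Cdca8, borealin, at 40.9 ± 4.38 TPM (merged exon length).

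Centromere genes were lower and uneven, with a median of 22.6 TPM over 7 genes. Cenpm, a subunit of the inner network that links centromeric chromatin to the kinetochore, was the highest with 45.1, 50.4, 46.6 and 51.8 TPM, and it was lowest in replicate 1, unlike most of the set. Cenph of the same network had 29.9, 30.5, 32.9 and 34.4 TPM. Its partner Cenpk had 29.9, 22.6, 33.7 and 35.8 TPM, with replicate 2 well below the other libraries. Cenpn, which reads the centromeric nucleosome, was at 22.6 ± 1.81 TPM and Cenpe, a kinetochore motor, at 22.4 ± 2.21 TPM. Cenpa, the histone H3 variant that marks the centromere (chromosome 5, 30666777 to 30674830, ENSMUSG00000029177), had 8.80, 7.22, 5.95 and 9.63 TPM. Replicate 4 exceeded replicate 3 by 1.62 times in Cenpa, the widest such ratio of the 48 genes. Cenpf, a large protein of the outer kinetochore and nuclear envelope (chromosome 1, 189640606 to 189688086, ENSMUSG00000026605), had 8.05, 6.08, 6.05 and 8.45 TPM, with replicates 2 and 3 below the other 2. Both lay below 10 TPM (edgeR adjusted p = 7.62e-07 for Cenpa and 3.18e-16 for Cenpf), a call that limma did not make for Cenpa (limma adjusted p = 0.0707).

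The microtubule-binding outer kinetochore was represented by 5 genes. Ndc80, whose protein grips the microtubule, had 48.3, 46.8, 45.1 and 55.4 TPM, with replicate 4 highest. The other subunits of the NDC80 complex were Spc24 at 43.7 ± 2.88 TPM, Spc25 at 33.8 ± 3.55 TPM and Nuf2 at 23.7 ± 1.83 TPM. Knl1, the scaffold on which checkpoint proteins dock, was lowest at 14.5 ± 1.07 TPM.

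Among 9 kinesin genes, levels ran from 5.91 to 75.1 TPM. Kif11, the motor that pushes spindle poles apart, had 80.1, 65.7, 70.0 and 84.5 TPM in replicates 1 to 4, with replicates 1 and 4 above the other 2. Kif20a, which carries the passenger complex to the midzone, was at 59.1 ± 7.27 TPM. Its level is uncertain, since 25.2% of its words are shared with Cdc23, which overlaps it on the opposite strand, although counting was by strand per the file headers. Kif18b, a plus-end motor, had 47.1, 41.5, 39.1 and 51.9 TPM. Kif18a, the related motor that damps chromosome oscillations (chromosome 2, 109280738 to 109341747, ENSMUSG00000027115), had 6.29, 5.17, 6.07 and 6.10 TPM, the lowest mean of all 48 genes and below 10 TPM (edgeR adjusted p = 1.19e-27). Replicate 2 was lowest and the other 3 nearly level. The remaining motors were Kif20b of cytokinesis at 28.1 ± 2.96 TPM, the chromokinesin Kif22 at 25.8 ± 2.97 TPM, the microtubule depolymerase Kif2c at 24.7 ± 4.40 TPM, Kif15, which shares work with Kif11, at 23.7 ± 1.97 TPM, and Kif23, the motor of centralspindlin, at 18.8 ± 3.07 TPM.

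Spindle, midzone and cytokinesis genes formed 1 role group. Tpx2, which activates Aurora A on spindle microtubules, was its highest with the merged exon length, at 55.8, 51.4, 48.3 and 64.1 TPM. Replicate 4 stood above the other 3. Ect2, the exchange factor that activates RhoA at the division plane, was at 36.6 ± 3.22 TPM and its recruiter Racgap1 at 35.0 ± 3.28 TPM. Nusap1, a microtubule bundling protein of the spindle, was at 16.5 ± 3.04 TPM and Prc1, which bundles midzone microtubules, at 15.3 ± 2.68 TPM. Anln, the contractile ring scaffold anillin, was at 8.32 ± 0.548 TPM, below 10 TPM (edgeR adjusted p = 2.15e-06). Espl1, separase, had 39.5, 32.0, 32.7 and 39.1 TPM, with replicates 1 and 4 above the other 2, and Pttg1, securin, was at 26.3 ± 1.42 TPM.

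These levels depend on the length taken for each gene, since the deposited length merges the exons of all transcripts. With the length of the longest protein-coding transcript in place of it, 38 genes moved by less than 1.5 times and 10 rose by more. Cenpa moved most, by 2.89 times to 22.8 TPM, followed by Cdca8 (2.30 times) and Kif18a (2.11 times, to 12.5 TPM). Only Cenpf, at 7.18 TPM, was then called below 10 TPM, and Cenpa, Kif18a and Anln were called above it. The order at the top also changed, with Top2a at 247 TPM above Smc4 at 179.5 TPM (means with coding transcript length). The highest gene changed in 3 further roles: Cdca8 (94.2 TPM) above Incenp (78.9 TPM), Racgap1 (58.7 TPM) above Tpx2 (42.5 TPM), and Spc25 (51.0 TPM) above Ndc80 (35.4 TPM). Bub3, Cenpm, Kif11 and Espl1 stayed the highest of theirs.

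**Figure D3:**
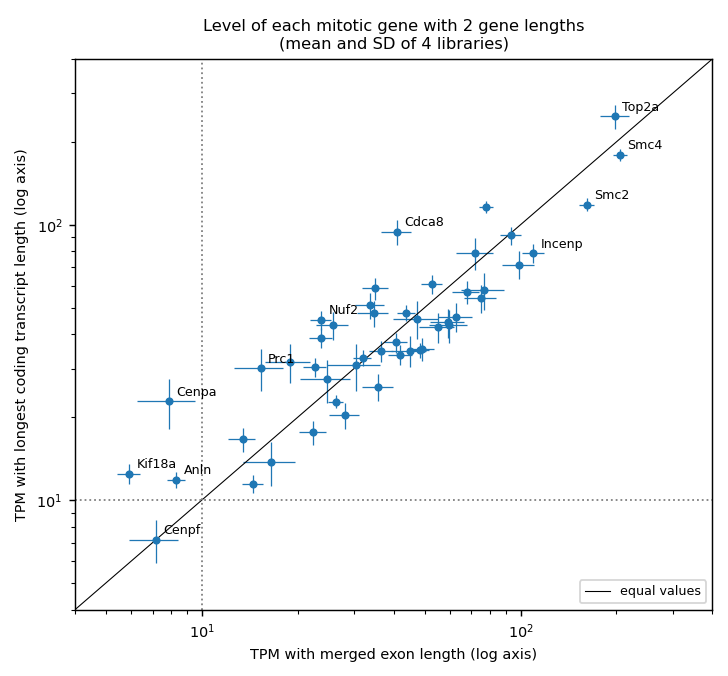
Mean level of each mitotic gene in TPM with the merged exon length (x, log axis) and with the longest coding transcript length (y, log axis), with SD bars over 4 libraries, a line of equal values and dotted lines at 10 TPM. Cenpa, Cdca8 and Kif18a lie farthest above the line, and Cenpf alone stays under 10 TPM on both axes.

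Proteins of these families often act as partners, so 21 pairs were compared within each library as a difference in log2(TPM + 1). In 20 of 21 pairs the difference had the same sign in all 4 libraries. The exact two-sided sign-flip permutation test then gave p = 0.125, the smallest that 4 libraries allow, or 0.131 with Benjamini-Hochberg adjustment over the 21 pairs, so no pair could pass 0.05. With the merged exon length, Kif18a was below Kif18b by the widest margin, a log2 difference of -2.73 ± 0.16 (SD, n = 4). Cenpe was above Cenpf by 1.53 ± 0.09 and Ncapd2 above Ncapg by 1.41 ± 0.06. Knl1 was below Ndc80 by a log2 difference of -1.69 ± 0.12, and Kif23 below its centralspindlin partner Racgap1 by -0.87 ± 0.11. The paralogs Bub1 and Bub1b differed by -0.72 ± 0.02, Aurka and Aurkb by -0.60 ± 0.13, and the condensin ATPases Smc2 and Smc4 by -0.35 ± 0.02. Cenph and Cenpk, which sit together in the inner kinetochore, differed least with that length, by 0.08 ± 0.23, with the same sign in 3 of 4 libraries (exact permutation p = 1). Coding transcript length reversed 4 pairs: Ndc80 against Nuf2 went from 1.01 ± 0.04 to -0.34 ± 0.03, Ndc80 against Spc25 from 0.52 to -0.51, Spc24 against Spc25 from 0.37 to -0.08 and Birc5 against Cdca8 from 0.60 to -1.01. It also narrowed the Kif18a and Kif18b difference to -1.41 ± 0.17, less wide than Bub1 against Bub3 (-1.61) and Knl1 against Ndc80 (-1.54). The smallest difference was then Aurkb against Incenp (-0.0061), with Cenph against Cenpk at 0.11.

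**Figure D4:**
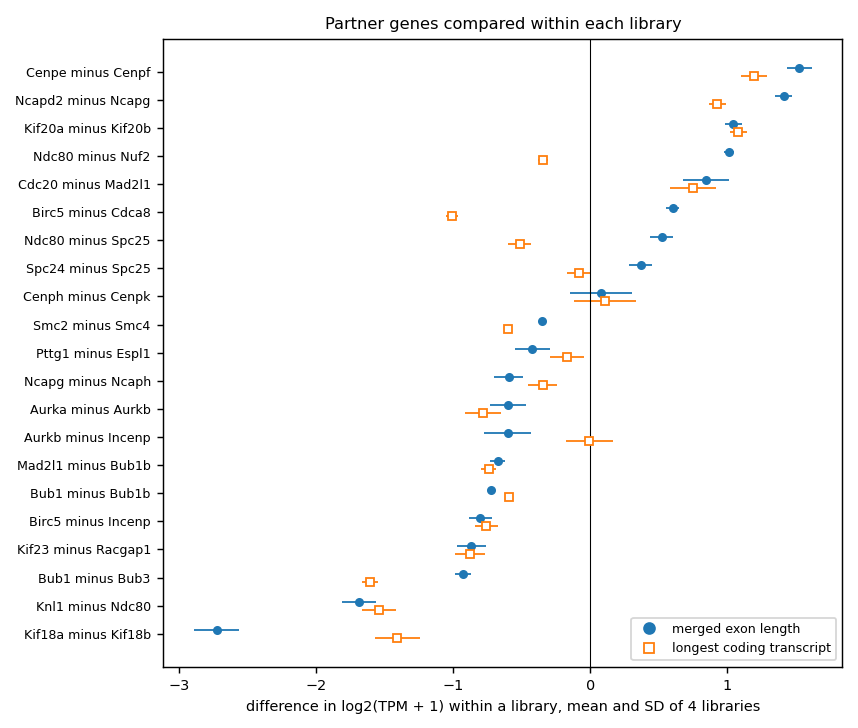
Difference in log2(TPM + 1) between the genes of each of 21 partner pairs (x), as the mean and SD of 4 libraries, with the merged exon length (filled circles) and the longest coding transcript length (open squares). Kif18a minus Kif18b is the most negative with the merged exon length, at -2.73, and 4 pairs cross zero between the 2 lengths.

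The 48 genes moved together between libraries. Their summed level was 2509, 2233, 2270.2 and 2695 TPM in replicates 1 to 4, a mean of 2427 ± 217 TPM and 0.223% to 0.269% of all TPM. Of the 48, 43 had their highest TPM in replicate 4 and 5 (Incenp, Cenpn, Knl1, Kif18a and Espl1) in replicate 1; 22.5% of the 11171 protein-coding genes averaging 10 counts or more were highest in replicate 4. The lowest library was replicate 2 for 26 genes, replicate 3 for 20 and replicate 1 for Cenph and Cenpm; replicate 2 or 3 was lowest for 55.6% of all those genes. With CPM values scaled by TMM, 46 of the 48 were highest in replicate 4 (26.7% of all). The order of the summed levels was that of the total counts, replicate 4 above 1, 3 and 2; the part of depth in this pattern was not tested.

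The same values were also set out inside each pair of libraries that shared a Ddx3y level, which gives no separate support for the pattern. Replicates 4 and 1 were the deeper libraries of their pairs, and the part of depth was not tested here either. Replicate 4 exceeded replicate 3 in 48 of 48 genes (51.2% of all genes), with a median ratio of 1.20 against 1.00 for all genes. Replicate 1 exceeded replicate 2 in 44 of 48 (58.1%), with a median ratio of 1.14 against 1.02. The 4 exceptions were Aurkb, Cenph, Cenpm and Pttg1. Replicate 3 exceeded replicate 2 in 27 of 48 (48.9%).

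Genes differed in how far they moved. The ratio of replicate 4 to replicate 3 was at least 1.3 in 12 genes and under 1.1 in 8. These counts only order the set, since no share of all genes past these values is given. The highest ratios were 1.62 for Cenpa, 1.45 for Kif2c, 1.44 for Nusap1, 1.43 for Aurka, 1.42 for Cdc20, 1.40 for Prc1 and 1.40 for Cenpf. At the other end were Kif18a at 1.01, Smc2 at 1.03, Smc4 at 1.05, Cenph at 1.05, Cenpk at 1.06, Knl1 at 1.07, Incenp at 1.08 and Anln at 1.08. By role the median ratio was 1.28 for spindle, midzone and cytokinesis genes, 1.25 for the passenger complex and 1.24 for kinesins. It was 1.21 for checkpoint and kinase genes, 1.18 for condensin and chromosome genes and 1.17 for separase and securin. The outer kinetochore had 1.16 and centromere genes 1.14. Genes with TTTGAA in the promoter had a median ratio of 1.22 (30 genes) and those without it 1.14 (12 genes). By CCAAT the medians were 1.21 with it (29 genes) and 1.15 without it (13 genes). Among all genes tested the medians were 1.01 with TTTGAA and 1.00 without it. The share with their highest TPM in replicate 4 was 27 of 30 (90%) with TTTGAA and 11 of 12 (91.7%) without it. Among all genes tested this share was 25.2% with TTTGAA and 21.7% without it. These medians are descriptions, and the differences between roles and motif classes were not tested.

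**Figure D5:**
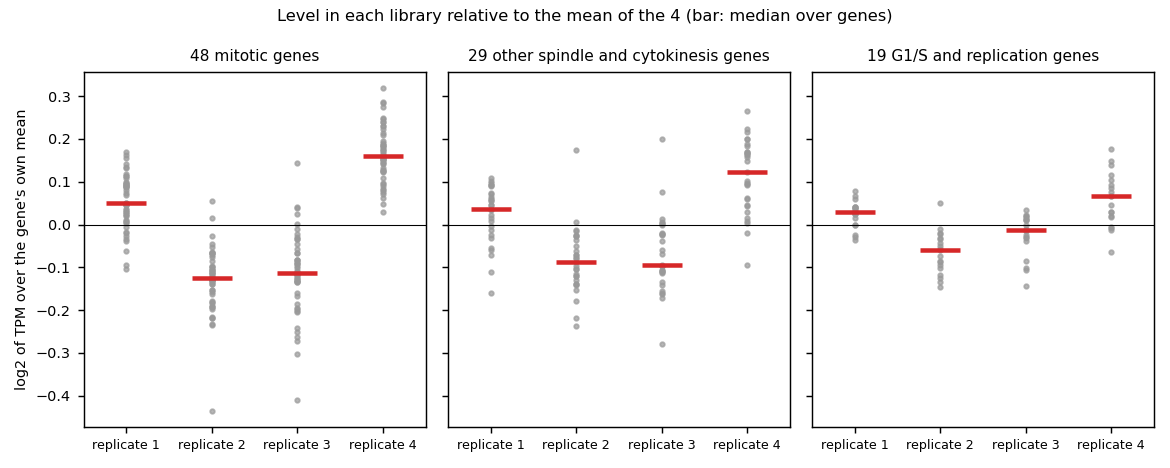
Log2 of each gene's TPM over its own mean of the 4 libraries (y) by library (x), for the 48 mitotic genes, 29 other spindle and cytokinesis genes and 19 G1/S and replication genes; grey points are genes and red bars medians. Replicate 4 is the highest library for 43 of 48, 18 of 29 and 12 of 19 genes.

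The median coefficient of variation of the 48 genes was 10.1%, against 5.46% for all protein-coding genes averaging 10 counts or more and 4.19% for the 7609 of them with at least the mean count of the least counted member. No member of the set was called variable between libraries at an adjusted p under 0.05 (test of the deviance, with edgeR's trended dispersion), where 0.366% of the 12849 genes tested were called. At an unadjusted p under 0.05 there were 25 of 48 (4.89% of all genes), and 9 without replicate 4. Kif11 had the smallest adjusted p, 0.0547 with edgeR's dispersion. It was called with library totals as the only scaling and with a stricter count minimum of 50. A common dispersion called 6 others (Cenpa, Cenpf, Cenpk, Kif2c, Prc1 and Nusap1). Leaving out replicate 1 called Aurkb, Kif11, Kif23 and Tpx2, leaving out replicate 2 called Aurkb, and leaving out replicate 3 or 4 called none. The shares of all genes given above belong to the main setting. No such share is given for the other settings, so their counts cannot be set against all genes. In simulated data the test of variation recovered 71 of 100 genes changed 2-fold in 1 library. The 48 genes had a median ratio of highest to lowest library of 1.23, and changes that small were not simulated. The absence of a call therefore does not show that a level was stable.

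The neighbours of these genes in the same pathways were described from 7 lists of 125 genes, all above 1 TPM. Of 16 condensin II and cohesin genes all lay above 10 TPM, led by the cohesin subunits Rad21 at 218 ± 10.2 TPM and Smc1a at 185 ± 6.09 TPM, with Sgo2a, a protector of centromeric cohesin, lowest at 12.0 ± 1.03 TPM. They were highest in replicate 4 in 6 of 16 cases, with a median ratio of replicate 4 to replicate 3 of 1.02. Of 22 other kinetochore genes 18 lay above and 2 below 10 TPM, from Zwint, a partner of Knl1, at 148 ± 4.70 TPM and Mis12 at 82.3 ± 2.20 TPM down to Itgb3bp at 4.53 ± 0.441 TPM, and 12 were highest in replicate 4. All 7 other checkpoint genes lay above 10 TPM, with Zw10 at 91.5 ± 4.01 TPM, the ATPase gene Trip13 at 80.6 ± 4.22 TPM and Spdl1 at 30.7 ± 1.62 TPM, and 5 were highest in replicate 4. All 18 genes of the anaphase-promoting complex and its regulators did too, from Anapc5 at 193 ± 7.51 TPM and the inhibitor Fbxo5 at 85.9 ± 7.34 TPM to Anapc10 at 15.4 ± 1.08 TPM, with 10 highest in replicate 4.

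Of 29 other spindle and cytokinesis genes 25 lay above and 4 below 10 TPM, from Gtse1 at 186 ± 8.92 TPM and the gamma-tubulin gene Tubg1 at 163 ± 8.74 TPM to the citron kinase gene Cit at 5.57 ± 0.390 TPM. Of these 18 were highest in replicate 4, and their median ratio of replicate 4 to replicate 3, 1.17, was the nearest of the 7 lists to the 1.20 of the 48 genes. The 14 genes of the DREAM, B-MYB and FOXM1 complexes and of NF-Y lay above 10 TPM, with Tfdp1 at 377 ± 9.56 TPM, the repressor E2f4 at 351 ± 4.16 TPM and Lin9 at 12.5 ± 0.690 TPM, and 6 were highest in replicate 4. The 19 G1/S and replication genes stood higher than the mitotic set, with a median of 148 TPM, from Pcna at 743 ± 31.3 TPM and Mcm3 at 713 ± 18.5 TPM to Chaf1b at 47.4 ± 2.66 TPM. Of these 12 were highest in replicate 4, but the median ratio of replicate 4 to replicate 3 was 1.04. None of the 125 genes was called variable between libraries. No test of the difference between lists was made, so none of these values shows a pattern particular to the 48 genes.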

How the data were processed

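Per the file headers, the authors made the deposited counts with featureCounts 1.4.6-p4 from exons of GENCODE M13 on mm10: whole read pairs per gene, reverse-stranded, multi-mapping reads left out. The labels name total RNA-seq as the assay but point to a poly(A) library protocol, and the aligner's release is given in neither the headers nor the labels used here. TPM was computed here over all 50600 genes from these counts and the merged exon length in each table. GENCODE M21 supplied symbols, matched by Ensembl identifier for 99.6% of genes, and coding transcript lengths.

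Levels of 21764 protein-coding genes were tested against 1 and 10 TPM in edgeR 4.0.16 (R 4.3.3, two-sided quasi-likelihood F test of the intercept, the log of the tested level being the offset; Benjamini-Hochberg, 0.05). These p-values rest on a dispersion shared with other genes. The test of variation took in 12849 genes averaging 10 counts or more (TMM scaling, deviance at the trended dispersion, one-sided). The scripts were tested on simulated data. Differences between partner genes used a pseudocount of 1.

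The 6 pairs of libraries differed beyond sampling noise (chi-square per degree of freedom 4.57 to 12.3). Each library counted as 1 replicate, but these values do not show that the libraries are independent. They were lowest inside the pairs that shared a Ddx3y level, 4.57 for replicates 1 and 2 and 6.21 for replicates 3 and 4. In 1 kb of exon, 3 counts equal 0.206 TPM in the deepest and 0.518 TPM in the shallowest library, a limit that covers counting error only since no molecular identifiers were used in the counts. Alternatives were DESeq2 1.42.0, limma 3.58.1, other scalings, filters, dispersions, lengths, pseudocounts and leaving out each replicate.

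The members and lists were chosen with earlier results of these data known. All 48 genes are described. Values per library are given for the 3 highest and 2 lowest genes, the highest gene of each role and the genes of the pairs with the largest and smallest difference. Of each other list the 2 highest genes and the lowest are named, and of marker lists the highest and lowest. Where several markers tied at 0 for the lowest, those named are all at 0. The values of Cenpa per library, Cd8a, Ddx3y, Xist and the genes at the ends of the library ratio were named after their values were seen.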

Additional observations from a re-analysis of the deposited data

Results flagged for a closer look

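Nuf2, a subunit of the NDC80 complex, had 26.4 TPM in replicate 4, set apart from the other 3 libraries, of which the nearest had 23.1 TPM. The gap was 0.882 of the range of the 4 libraries. Chance alone sets apart about 1 in 20 groups of this size, and 48 genes were examined.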

How the results depend on the processing

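Of the calls against 1 TPM, all 528 repeats over 48 genes kept their direction and side of the threshold; against 10 TPM, 524 did, 1 lost its call and 3 reversed. With the longest coding transcript as gene length, 1 gene was below 10 TPM, and Cenpa, Kif18a and Anln changed to log2 1.20, 0.33 and 0.25 above 10 TPM. The number of genes called variable was 1 with library totals, 1 with at least 50 counts and 6 with a common dispersion, and 0 to 4 when a replicate was left out. At an unadjusted p under 0.05 it was 9 to 33 when a replicate was left out, an alternative chosen after seeing the data. No share of all genes is given for these settings, so the counts cannot be set against all genes. The summed level, replaced by a median per library, gave 38.6 TPM. With coding transcript length the log2 differences of Ndc80 against Nuf2 (-0.34), Spc24 against Spc25 (-0.0813), Ndc80 against Spc25 (-0.51) and Birc5 against Cdca8 (-1.01) reversed, as did Cenph against Cenpk without replicate 2 (-0.0306, against 0.128 without replicate 4); the cause was not tested. Each value of the 48 genes rests on at least 239 counts, and the number of libraries limits the tests of pairs.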
